A study of Mus musculus with 6 samples.

Results

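Cytochrome oxidase and ATP synthase are the last enzymes of mitochondrial respiration, and their nuclear-encoded subunits were examined here in aortas of eNOS-deficient and wild-type mice. Members were all genes whose only annotated symbol begins with Cox4 to Cox8 or with Atp5, pseudogene symbols left out, each read by its brightest probe set. This gave 34 genes of 22184 with a probe set of their own. Of these, 32 were bright enough to be tested, with a mean of at least 4.38 log2 (the level that the dimmest 25% of probe sets stay below), as were 18008 genes in all. The groups were 3 samples of aorta from mice deficient in endothelial nitric oxide synthase, which produces the nitric oxide of the endothelium (eNOS-KO 11, 15 and 19, by the numbers in their titles), and 3 samples of aorta from age-matched wild-type mice (WT 2, 3 and 5), with no treatment named for either. The labels name no age, sex, strain or targeted allele. Nor do they state whether each sample came from a separate animal, so p-values measure the spread between these samples only. Values are log2 signals from 1 Affymetrix array per sample, and differences are eNOS-KO minus WT.

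Cytochrome oxidase, complex IV of the respiratory chain, takes electrons from cytochrome c, reduces oxygen to water and pumps protons out of the mitochondrial matrix. ATP synthase lets those protons flow back through a rotating ring of c subunits and couples the turn of its central stalk to ATP synthesis in the F1 head, which a peripheral stalk holds still. Several cytochrome oxidase subunits exist as a common form and a form restricted to particular tissues, such as heart and skeletal muscle, lung or testis. Nitric oxide itself binds cytochrome oxidase and slows respiration in competition with oxygen. The fat around the mouse thoracic aorta resembles brown fat, which is rich in mitochondria.

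Promoter stretches are shown for 4 members picked by their values below, and no difference given below rests on these sequences. Cox7a1 and Cox8b are tissue-specific isoforms whose groups of arrays did not overlap. Atp5e is the member with the smallest p, and Atp5k is the tested member whose eNOS-KO arrays all lay below WT. Each run holds the 250 bases before the RefSeq start site on build GRCm38.p6, 5′ to 3′ on the gene's strand. Capitals mark letters of the motifs named after the runs, where the match lies wholly within these 250 bases.
Cox7a1 (chr7:30183921-30184170, plus strand): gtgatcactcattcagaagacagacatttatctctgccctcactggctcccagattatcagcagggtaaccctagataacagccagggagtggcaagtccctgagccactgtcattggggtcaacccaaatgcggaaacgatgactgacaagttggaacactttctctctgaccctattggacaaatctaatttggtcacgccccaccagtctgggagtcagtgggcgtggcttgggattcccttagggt
Cox8b (chr7:140900447-140900696, minus strand): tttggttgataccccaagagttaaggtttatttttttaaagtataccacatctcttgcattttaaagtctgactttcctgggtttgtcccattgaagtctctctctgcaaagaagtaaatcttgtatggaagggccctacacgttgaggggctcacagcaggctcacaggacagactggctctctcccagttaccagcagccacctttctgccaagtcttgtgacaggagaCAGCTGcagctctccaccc
Atp5e (chr2:174464102-174464351, minus strand): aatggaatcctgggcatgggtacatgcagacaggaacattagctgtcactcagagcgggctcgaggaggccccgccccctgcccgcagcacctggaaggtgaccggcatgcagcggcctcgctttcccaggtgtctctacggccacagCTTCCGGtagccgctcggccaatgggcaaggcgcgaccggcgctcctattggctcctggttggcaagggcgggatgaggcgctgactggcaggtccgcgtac
Atp5k (chr5:108434400-108434649, minus strand): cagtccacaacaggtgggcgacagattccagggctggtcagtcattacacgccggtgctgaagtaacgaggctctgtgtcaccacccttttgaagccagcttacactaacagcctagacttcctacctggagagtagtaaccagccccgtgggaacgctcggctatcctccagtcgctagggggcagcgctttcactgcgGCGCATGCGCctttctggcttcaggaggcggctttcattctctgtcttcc

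The motifs were searched on both strands in windows from 250 bases before to 50 after each start, which RefSeq tables held for 28 of the 34 members and for 27025 genes in all. NRF1 and the ETS factor GABP are known activators of nuclear respiratory genes, and ERR binds with the coactivator encoded by Ppargc1a. Letters of the NRF1 motif (GCGC and TGCGC with any base between them) stood in 7 of 28 members' windows (25%, against 5.19% of all genes), Atp5k among them. The ETS motif (CCGGAAG) stood in 9 (32.1%, against 9.93%), Atp5e, Atp5j and Atp5k among them, and the ERR motif (AAGGTCA) in 4 (14.3%, against 5.38%). The ETS match of Atp5k and the ERR matches of Atp5e and Atp5k did not lie wholly before the start, so the runs above do not show them. Letters of at least 1 of these motifs were found for 13 of 24 common subunits and for 0 of 4 tissue-specific isoforms. Those 4 were Cox6b2, Cox7a1, Cox7b2 and Cox8b, while Cox4i2, Cox6a2 and Cox8c had no window. The share of all genes with at least 1 of these motifs was not computed. With only 4 windows, no difference between the isoforms and other genes is read from this. The muscle E-box (CAGCTG) stood in the windows of Cox8b and Atp5b (7.14% of members, against 18.3% of all genes), and the YY1 motif (AAGATGGCG) in those of Atp5j and Atp5j2. These are matches of letters and say nothing of binding.

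Across the 32 tested members no gene passed limma at an adjusted p under 0.05 (background 0.0278% of 18008 genes) or under 0.1 (background 0.0444%), and the smallest adjusted p was 0.354, for Atp5e. At an unadjusted p under 0.05 there were 5 members (background 11.6%): Atp5e, Cox7a1, Cox5b and Atp5j on the higher side (background 7.86%) and Atp5k on the lower side (background 3.72%). That count was 0 without WT 2 and 1 without eNOS-KO 15 (Atp5e). Without eNOS-KO 11 it was 1, and the member was Atp5g1 at -0.37, so none of the 5 above passed. It was 4 without WT 3, 5 without WT 5 and 7 without eNOS-KO 19, with the range of shares over all genes given below. For 11 members the groups of arrays did not overlap (background 19.5%), 10 of them higher in eNOS-KO aorta (background 13.1%) and 1 lower (background 6.47%). Of the 32 members 22 had a positive difference, as had 56.6% of all genes tested, with a median of 0.12 log2 against 0.036 over all genes tested. The members' median was 0.043 without eNOS-KO 11, 0.059 without WT 5, 0.20 without eNOS-KO 19, 0.057 after repeated quantile normalization and -0.013 with brown adipocyte markers as a covariate. Differences ran from -0.41 for Atp5k to 0.42 for Atp5e, and the median standard error of a member was 0.14. Sizes were thus small: the fold of Atp5e was 1.34.

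**Figure D1:**
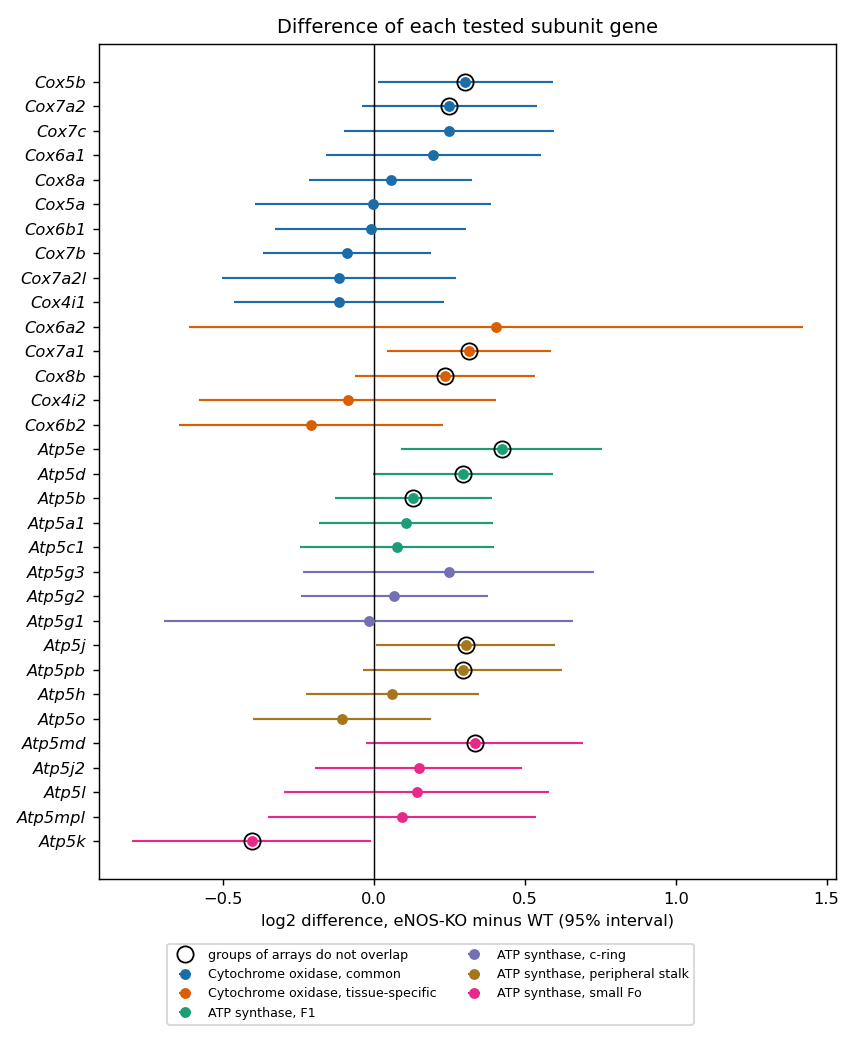
Log2 difference (eNOS-KO minus WT, x axis) of each of the 32 tested genes (y axis), coloured by role, with the 95% interval from limma as a bar and a black ring where the groups of arrays did not overlap. Most points lie within 0.3 of 0, Atp5e stands furthest to the right among the ringed genes at 0.42, and Atp5k is the ringed gene on the left at -0.41.

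The arrays themselves differed in a way that touches every count above. Array medians were 5.55 to 5.59 in eNOS-KO and 5.61 to 5.68 in WT, and r between arrays was 0.947 to 0.983 across probe sets. Of the 32 members 20 had their highest value on eNOS-KO 11 (62.5%, against 20.5% of all genes) and 16 their lowest on WT 5 (50%, against 32.7%). Averaged over the members, eNOS-KO 11, 15 and 19 lay 0.27, 0.086 and -0.024 from the WT mean, and WT 2, 3 and 5 lay 0.021, 0.046 and -0.067 from it. On the same arrays skeletal muscle markers lay 1.40, 0.10 and 0.014 (eNOS-KO) and -0.15, -0.78 and 0.93 (WT) from the WT mean. Squamous epithelium markers averaged 5.36 ± 0.047 in eNOS-KO and 6.63 ± 1.39 in WT aorta (SD, n = 3 each), with WT 5 higher than the WT mean by 1.57. Smooth muscle markers, which the label aorta calls for, averaged 9.48 ± 0.18 in eNOS-KO and 9.14 ± 0.091 in WT aorta. Averages on eNOS-KO 11, 15 and 19 were 9.60, 9.28 and 9.56, above 9.22, 9.04 and 9.15 on WT 2, 3 and 5. Of 11 such markers 10 had a positive difference (56.6% of all genes). For 6 the groups did not overlap on the higher side (background 13.1%). The part of smooth muscle in the members' differences was not tested. In whole tissue, fewer cells of a type and less RNA per cell cannot be told apart. Nos3, the targeted gene, stood at 7.26 ± 0.13 in eNOS-KO and 7.74 ± 0.34 in WT aorta (limma adjusted p = 0.399), and its groups overlapped, with eNOS-KO 15 at 7.39 above WT 5 at 7.36.

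**Figure D2:**
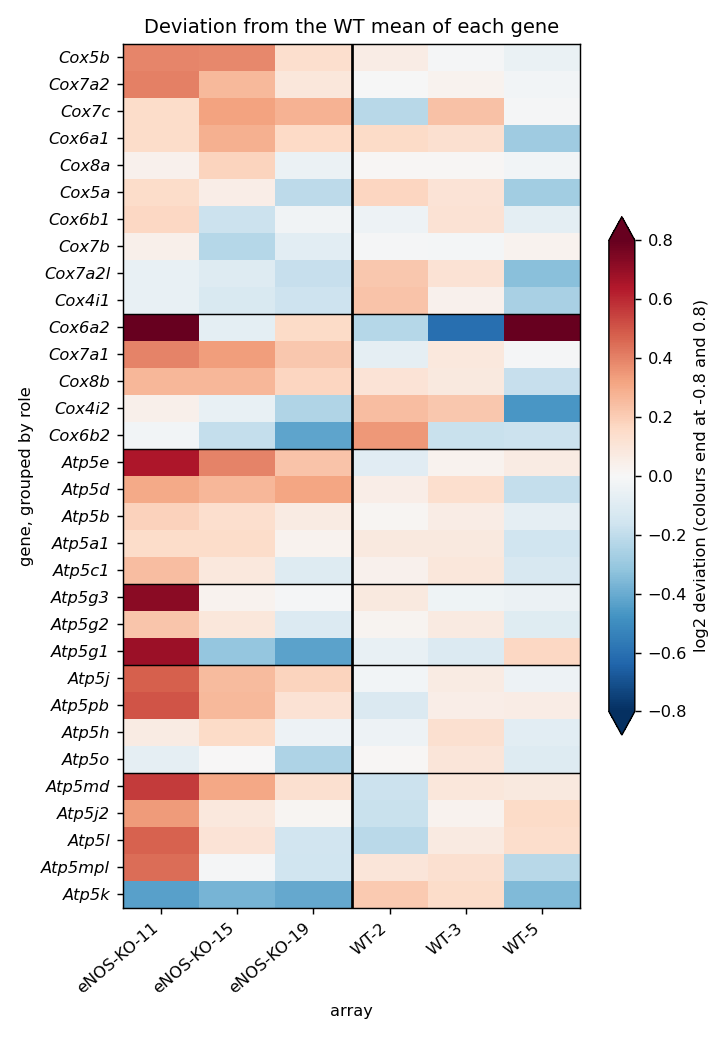
Deviation of each tested gene (rows, grouped by role) from its own WT mean on each array (columns, eNOS-KO left of the line, WT right of it), in log2 units by colour. The column of eNOS-KO 11 is the darkest red, with Atp5g1, Atp5g3 and Cox6a2 among its strongest cells, while eNOS-KO 19 is pale for most genes and Atp5k is blue on all 3 eNOS-KO arrays.

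Common cytochrome oxidase subunits showed little difference as a group. Of 10 tested, 5 had a positive and 5 a negative difference, and the median was 0.025 log2 against 0.036 over all genes. The unadjusted threshold was passed by 1 (10%, background 11.6%), and 2 had groups without overlap (20%, background 19.5%). The sign of that median turned with repeated quantile normalization (-0.036), with brown adipocyte markers as a covariate (-0.043), without eNOS-KO 11 (-0.0062) and without WT 5 (-0.0028). Cox5b, the subunit that carries a zinc ion on the matrix side, measured 11.64, 11.64 and 11.39 on eNOS-KO 11, 15 and 19, against 11.32, 11.25 and 11.20 on WT 2, 3 and 5. All eNOS-KO arrays lay above all WT arrays, though eNOS-KO 19 lay closer to WT 2 than to the other eNOS-KO arrays. The difference was 0.30 (standard error 0.12, unadjusted p = 0.0429, limma adjusted p = 0.415), and a second, dimmer Cox5b probe set gave 0.027 with overlapping groups.

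Cox7a2, the common form of subunit 7A, measured 11.39, 11.25 and 11.08 in eNOS-KO aorta and 10.98, 11.02 and 10.97 in WT aorta. Its groups did not overlap either, with a difference of 0.25 (standard error 0.12, limma adjusted p = 0.488). Cox7c and Cox6a1, of the small membrane subunits, differed by 0.25 and 0.20 with overlapping groups. Cox7a2l, which ties complex IV to complex III in supercomplexes, averaged 7.90 ± 0.062 in eNOS-KO and 8.02 ± 0.29 in WT aorta. Cox4i1, the common form of the largest nuclear subunit, averaged 10.87 ± 0.053 in eNOS-KO and 10.99 ± 0.24 in WT aorta, and here WT 2 was the highest array and WT 5 the lowest. Cox5a, Cox6b1, Cox7b and Cox8a differed by -0.0039, -0.012, -0.090 and 0.055. For Cox7b the dimmer of its probe sets disagreed with the bright one: it measured 6.08, 6.45 and 5.84 in eNOS-KO and 5.67, 5.62 and 5.73 in WT aorta, a difference of 0.45 without overlap. Cox6c is not reported, since its probe sets also list another symbol.

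Among tissue-specific cytochrome oxidase isoforms, 5 of 7 passed the filter on dim values, 3 with positive differences, and the median was 0.23 log2. Cox7b2 and Cox8c, forms known from testis, stayed below the filter level on all 6 arrays, at 2.16 to 2.68 and 3.68 to 4.02. Without eNOS-KO 11 the median of the 5 was 0.036, without WT 3 it was 0.10 and without WT 5 it was 0.14. Of the 5, 2 had groups without overlap, both on the higher side (background 13.1%). These were Cox7a1 and Cox8b, the isoforms shared by heart, skeletal muscle and brown fat. Cox6a2 had overlapping groups, as had Cox6b2 and Cox4i2, which differed by -0.21 and -0.087. Cox7a1, the restricted form of subunit 7A, measured 12.48, 12.42 and 12.30 in eNOS-KO and 12.01, 12.17 and 12.07 in WT aorta. The difference was 0.31 (standard error 0.12, 95% interval 0.042 to 0.59, unadjusted p = 0.0290, limma adjusted p = 0.384), and it stayed between 0.27 and 0.36 with any 1 array left out. Cox8b, the restricted form of subunit 8, measured 12.93, 12.93 and 12.84 in eNOS-KO against 12.78, 12.74 and 12.48 in WT aorta. Here WT 5 was far below the other arrays, and the difference of 0.23 (standard error 0.13, limma adjusted p = 0.517) was 0.14 without it.

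Cox6a2, the form of subunit 6A in heart and skeletal muscle, followed another pattern. It measured 11.43, 10.22 and 10.44 in eNOS-KO aorta and 10.07, 9.69 and 11.12 in WT aorta. The groups overlapped, eNOS-KO 11 and WT 5 were the high arrays, and the difference of 0.40 had a standard error of 0.43 (limma adjusted p = 0.767). It was 0.036 without eNOS-KO 11, 0.10 without WT 3 and 0.82 without WT 5. Skeletal muscle markers were high on those same arrays, by 1.40 on eNOS-KO 11 and 0.93 on WT 5. Cardiac markers were high there too, by 0.44 and 0.43, with the other arrays at -0.57 to -0.12 from the WT mean. Which of these tissues Cox6a2 followed was not tested, and no fit used cardiac markers. With the mean of skeletal muscle markers as a covariate the Cox6a2 difference was -0.021 (standard error 0.14). In that fit the difference was 0.31 for Cox7a1 (standard error 0.13) and 0.27 for Cox8b (standard error 0.13). With squamous epithelium markers as a covariate, a setting chosen after seeing the data, it was 1.11 for Cox6a2 (limma adjusted p = 0.296). Brown adipocyte markers lay 0.26, 0.26 and 0.071 from the WT mean on eNOS-KO 11, 15 and 19, and 0.029, 0.14 and -0.17 on WT 2, 3 and 5. With those as a covariate the difference was 0.22 for Cox7a1 (standard error 0.16) and 0.089 for Cox8b (standard error 0.16), neither past the test. These brown adipocyte markers, Ppargc1a among them, themselves averaged 0.20 higher in eNOS-KO aorta. Skeletal muscle markers averaged 0.51 higher there (22 of 22 positive, against 56.6% of all genes). Squamous epithelium markers differed by -1.28 (0 of 19 positive). A fit that includes any of these 3 lists cannot tell its part from that of genotype. No cause is read from the differences in such fits.

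**Figure D3:**
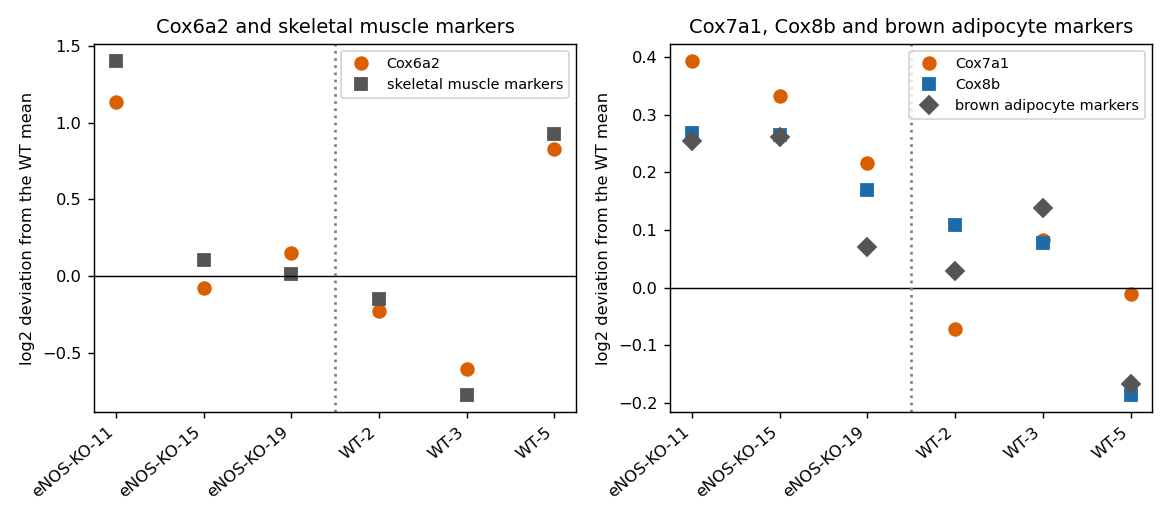
Log2 deviation from the WT mean (y axis) on each array (x axis, eNOS-KO left of the dotted line) of Cox6a2 beside the mean of 22 skeletal muscle markers, and of Cox7a1 and Cox8b beside the mean of 13 brown adipocyte markers; the panels have different y scales. Cox6a2 and the muscle markers are both high on eNOS-KO 11 and WT 5, whereas Cox7a1 and Cox8b are higher on all 3 eNOS-KO arrays than on any WT array.

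Cox4i2, a form of subunit 4 known from lung and from oxygen sensing, averaged 6.85 ± 0.14 in eNOS-KO and 6.93 ± 0.40 in WT aorta, with WT 5 the lowest array at 6.47. Markers of pericytes and lung lay -0.22, -0.31 and 0.54 from the WT mean on eNOS-KO 11, 15 and 19. On WT 2, 3 and 5 they lay 0.36, -0.11 and -0.26 from it. Of these 10 markers 8 had a positive difference (56.6% of all genes) and 2 a negative one. Scgb1a1, with a negative one, measured 3.38, 3.34 and 3.49 in eNOS-KO and 8.99, 5.24 and 4.37 in WT aorta. Whether Cox4i2 followed these markers was not tested. Cox6b2, a testis form, averaged 5.57 ± 0.20 in eNOS-KO and 5.78 ± 0.30 in WT aorta. The balance between a restricted isoform and its common partner was compared within arrays for 7 pairs by a two-sided exact permutation test, which with 3 samples against 3 cannot go below p = 0.1. Cox8b minus Cox8a was 0.18 ± 0.081 in eNOS-KO and -0.00048 ± 0.14 in WT aorta, a difference of 0.18 (exact p = 0.2, 0.7 adjusted over the 7 pairs). Cox7a1 minus Cox7a2 was 1.16 ± 0.067 in eNOS-KO and 1.09 ± 0.062 in WT aorta, a difference of 0.064 (exact p = 0.3, adjusted 0.7). Cox6a2 minus Cox6a1 differed by 0.21 (exact p = 0.7, adjusted 0.933), Cox6b2 minus Cox6b1 by -0.20 (0.5, 0.875) and Cox4i2 minus Cox4i1 by 0.029 (0.8, 0.933). The pairs with Cox8c and Cox7b2 counted in that adjustment but are not read, since these forms lay below the filter level. Over the 5 readable pairs the adjusted p was 0.75 or 0.8, and none passed the test.

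No ATP synthase subunit passed the test, and most had positive differences. Of 17 tested, 14 had a positive difference (56.6% of all genes), 6 had groups without overlap on the higher side (background 13.1%) and 1 on the lower side (background 6.47%), and the median was 0.13 log2 against 0.036 over all genes. Highest of all arrays was eNOS-KO 11 for 13 of the 17, and without it the median was 0.050, while without eNOS-KO 19 it was 0.21. Repeated quantile normalization gave 0.057 and brown adipocyte markers as a covariate 0.0059.

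All 5 genes of the F1 head and central stalk had positive differences (56.6% of all genes), and for 3 of them the groups did not overlap (background 19.5%). Atp5e, the epsilon subunit at the foot of the central stalk, measured 9.52, 9.27 and 9.11 in eNOS-KO aorta against 8.79, 8.91 and 8.95 in WT aorta. Every eNOS-KO array lay above WT, with eNOS-KO 11 the highest. The difference was 0.42 (standard error 0.14, 95% interval 0.089 to 0.76, unadjusted p = 0.0197, limma adjusted p = 0.354), and it was 0.31 to 0.52 with any 1 array left out. A dimmer Atp5e probe set did not follow: it gave -0.13 with overlapping groups, and the mean of both probe sets differed by 0.15. Atp5d, the delta subunit beside it, measured 11.61, 11.57 and 11.62 in eNOS-KO and 11.36, 11.44 and 11.11 in WT aorta. Its eNOS-KO values were close together, and the difference of 0.30 (standard error 0.13, limma adjusted p = 0.435) matched in sign a second probe set with 0.33, whose groups overlapped. Atp5b, the catalytic beta subunit, measured 13.35, 13.30 and 13.24 in eNOS-KO and 13.18, 13.23 and 13.10 in WT aorta. The gap between its groups was narrow, and the difference was 0.13 (standard error 0.11, limma adjusted p = 0.696). Atp5a1 (alpha) and Atp5c1 (gamma) differed by 0.11 and 0.075 with overlapping groups.

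The c ring is encoded by Atp5g1, Atp5g2 and Atp5g3, and none of these had groups without overlap. Atp5g3 measured 9.55, 8.86 and 8.82 in eNOS-KO aorta against 8.91, 8.79 and 8.79 in WT aorta, so a single array set its difference of 0.25 (standard error 0.21, limma adjusted p = 0.686), which was 0.012 without eNOS-KO 11. Atp5g1 was also high on eNOS-KO 11, at 6.33, with 5.33 and 5.21 on 15 and 19, against 5.58, 5.53 and 5.81 in WT aorta. Its difference of -0.018 became -0.37 without eNOS-KO 11. Atp5g2 differed by 0.067, with a second probe set at 0.076.

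In the peripheral stalk, Atp5j (subunit F6) measured 8.59, 8.36 and 8.29 in eNOS-KO and 8.09, 8.18 and 8.07 in WT aorta. The groups did not overlap, and the difference was 0.30 (standard error 0.13, unadjusted p = 0.0464, limma adjusted p = 0.426). Atp5pb (subunit b) measured 11.20, 10.96 and 10.81 in eNOS-KO and 10.58, 10.75 and 10.76 in WT aorta, a difference of 0.29 (standard error 0.14, limma adjusted p = 0.478). Here eNOS-KO 19 lay just above WT 5. Atp5h (subunit d) differed by 0.060 and, on a second probe set, by 0.065, and Atp5o, which encodes the protein that joins the stalk to the F1 head, averaged 7.10 ± 0.13 in eNOS-KO and 7.21 ± 0.10 in WT aorta.

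The small membrane subunits of Fo held opposite patterns. Atp5k, subunit e, which helps ATP synthase form dimers, measured 9.57, 9.63 and 9.60 in eNOS-KO aorta against 10.22, 10.15 and 9.65 in WT aorta. The eNOS-KO values were nearly equal and WT 5 stood just above them, far below WT 2 and 3. The difference was -0.41 (standard error 0.17, 95% interval -0.80 to -0.011, unadjusted p = 0.0453, limma adjusted p = 0.421). It was -0.58 without WT 5 (limma adjusted p = 0.136), -0.68 with squamous epithelium markers as a covariate (limma adjusted p = 0.188) and -0.52 with array weights (limma adjusted p = 0.0769), so no setting carried it past the threshold. With arrays centred on their medians it was -0.34 and the groups overlapped. The epithelium markers themselves differed between the groups on average, so a fit with them cannot tell their part from that of genotype. Atp5md, a small subunit also tied to dimers, measured 12.31, 12.06 and 11.88 in eNOS-KO and 11.58, 11.84 and 11.83 in WT aorta, a difference of 0.33 (standard error 0.15, limma adjusted p = 0.461). Atp5l (subunit g), Atp5j2 (subunit f) and Atp5mpl differed by 0.14, 0.15 and 0.092, and for these 3 the highest array was again eNOS-KO 11.

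**Figure D4:**
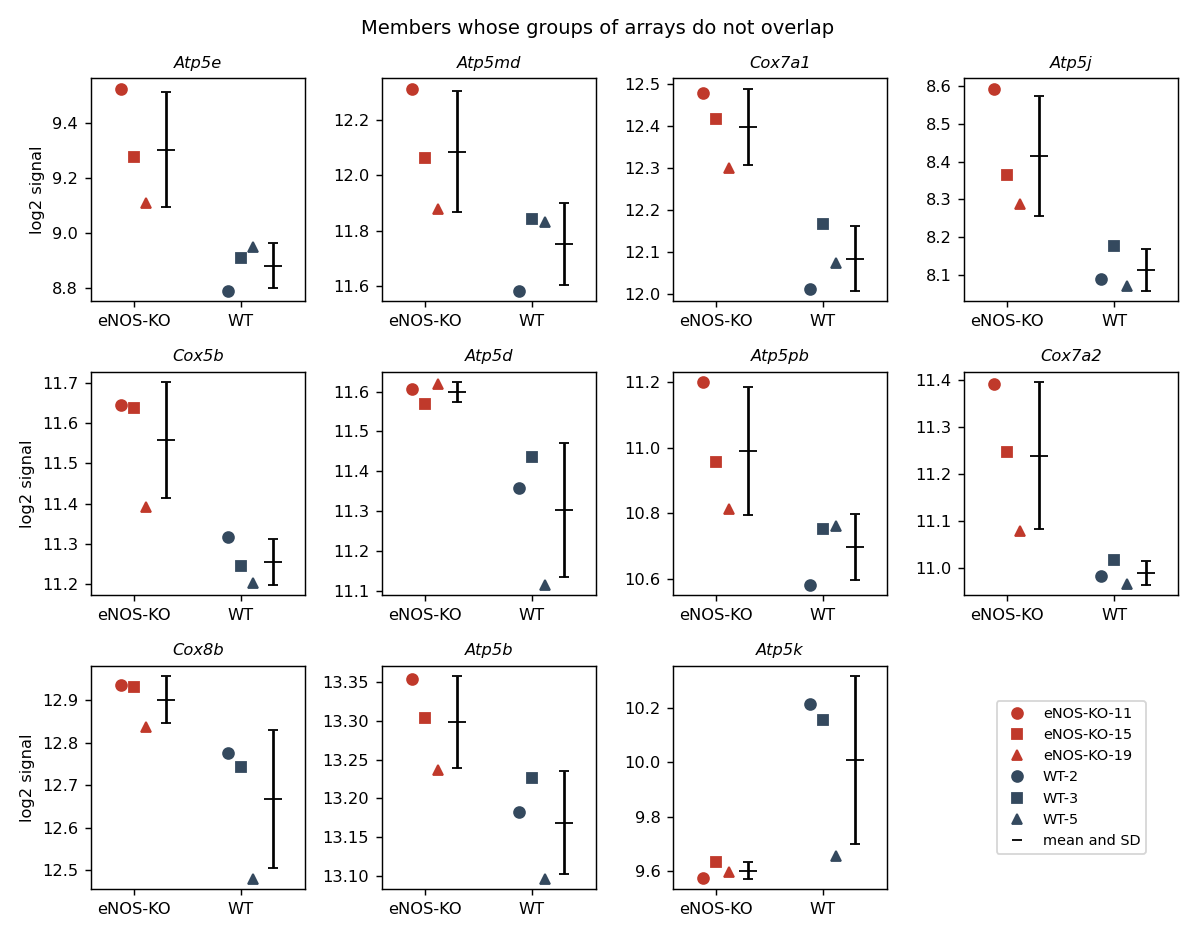
Log2 signal (y axes, a separate scale for each gene, not starting at 0) on each array of the 11 tested members whose groups did not overlap, eNOS-KO in red left of WT in dark blue, with the mean and SD of 3 arrays as black bars. In 10 panels all red points lie above the blue ones, eNOS-KO 11 is the top point in 9 of these, and for Atp5k the red points lie below the blue ones with WT 5 close to them.

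Genes around these enzymes were read from lists by function, and none of their members passed the test over all genes. Of 23 assembly factors of cytochrome oxidase, 18 had a positive difference (56.6% of all genes, median 0.18). On the higher side 7 passed the unadjusted threshold (background 7.86%) and 7 had groups without overlap (background 13.1%). Averaged over these factors, eNOS-KO 11, 15 and 19 lay 0.26, 0.23 and 0.043 from the WT mean. WT 2, 3 and 5 lay 0.079, 0.11 and -0.19 from it, so eNOS-KO 19 was below WT 2 and 3. Pet100, needed to build complex IV, measured 7.83, 7.66 and 7.55 in eNOS-KO and 7.06, 7.16 and 7.22 in WT aorta, a difference of 0.53 (standard error 0.12, limma adjusted p = 0.245). The assembly genes Cox16 and Cox20 differed by 0.38 and 0.28, and Fastkd2, which acts on mitochondrial RNA, by 0.37, each without overlap. For ATP synthase assembly 4 of 5 genes were positive (56.6% of all genes), led by Atpaf1 (0.28), and 0 passed the unadjusted threshold (background 11.6%). Atpif1, the inhibitor of ATP synthase, averaged 8.62 ± 0.058 in eNOS-KO and 8.48 ± 0.38 in WT aorta. Dmac2l, once named for its link to ATP synthase as Atp5s, differed by 0.37 without overlap (limma adjusted p = 0.432), and Dmac2 by -0.23. Of 11 genes of complex III and cytochrome c, 9 were positive (56.6% of all genes; median 0.13), 2 passed the unadjusted threshold (background 11.6%) and 5 had groups without overlap (background 19.5%), with Bcs1l (a complex III assembly factor) at 0.37, Cyc1 (cytochrome c1) at 0.32, Uqcrc2 at 0.17 and Uqcrb at 0.15. Of 6 complex II genes 4 were positive (56.6% of all genes, median 0.15) and 1 passed the unadjusted threshold (background 11.6%). That was the assembly factor Sdhaf2 at 0.48, while Sdhc, Sdhd and Sdhaf1 (0.31, 0.15 and 0.15) did not pass. Averages of the complex II and complex III lists were likewise lower on eNOS-KO 19 (-0.00054 and -0.026) than on WT 2 and 3. They were lowest on WT 5 (-0.19 and -0.16 from the WT mean). Subunits encoded by mitochondrial DNA were not analysed here.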

How the data were processed

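RNA from 3 eNOS-KO and 3 WT aorta samples was hybridised to 1 Affymetrix array each. The deposited log2 values came from RMA in Affymetrix Expression Console 1.3.1, per the submitters' processing notes, and were used as deposited. RMA fits background, quantile normalization and probe summary together, so steps before it were not repeated and single probes were not checked. The number of arrays limits the precision.

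Of 41345 probe sets, 23525 had 1 gene symbol, 1810 several and 16010 none in the platform annotation. The brightest probe set per gene was kept. The two-sided test of each difference used lmFit and eBayes from limma 3.58.1 (R 4.3.3), with no covariates. It ran over 18008 genes with Benjamini-Hochberg adjustment at 0.05, on scripts tested on simulated data. With 3 simulated arrays a group, 22% of 1.5-fold and 50% of 2-fold changes were recovered, with 4 false calls. Changes of the size seen here, such as the fold of 1.34 for Atp5e, could thus be missed. Isoform pairs were compared by exact permutation. Plots used matplotlib 3.10.9. Promoter sequences and starts are from RefSeq.

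Alternatives were other dim filters, variance models, probe summaries, scalings and weights, marker covariates and arrays left out. Named were members past the unadjusted threshold or without overlap, tissue-specific isoforms with their partners, and the smallest p and brightest per role. Up to 4 genes were named from some of the other lists, and none from the white adipocyte list. Values of other members are given for completeness. The members and lists were chosen with earlier results of these data known.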

Additional observations from a re-analysis of the deposited data

How the results depend on the processing

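With 3 arrays a group the median standard error over all genes was 0.16 log2, against a largest member difference of 0.42. No member passed an adjusted p under 0.05 with limma under any alternative run (smallest 0.0769, Atp5k with array weights), although 5 passed an unadjusted p under 0.05 (background 11.6%). That count was 3 with all probe sets of a gene averaged (background 11.5%), 2 after repeated quantile normalization (8.88%), 8 with array weights (19.03%), 3 with skeletal muscle (15.04%) and 1 with brown adipocyte markers (7.77%) as a covariate, and 0 to 7 with 1 array left out (7.53% to 14.9%). The count without overlap, 11 (background 19.5%), was 11 to 16 with 1 array left out (26.4% to 35.3%), and 23 (48.0%) without eNOS-KO 11 and WT 5, a setting chosen after seeing the data. The median of tissue-specific isoforms, 0.23, was -0.083 without the dim filter, which adds Cox7b2 and Cox8c, -0.00083 with the muscle covariate, and 0.036 to 0.28 with 1 array left out. Centring arrays on their medians moved the median over all genes by 0.065, other scalings by less.

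Signs turned for some members, none past the test. Averaging probe sets turned Cox7b (0.18), median centring Cox6b1 (0.054), Cox5a (0.062) and Atp5g1 (0.047), quantile normalization Cox8a (-0.0035), Atp5mpl (-0.0058) and Atp5g1 (0.056), array weights Atp5mpl (-0.048), and the muscle covariate Cox5a (0.026) and Cox6a2 (-0.021, against 0.40). The brown adipocyte covariate turned 6: Atp5a1 (-0.036), Atp5c1 (-0.12), Atp5g2 (-0.11), Atp5h (-0.086), Atp5mpl (-0.18) and Cox8a (-0.028), leaving 16 positive in place of 22. Epithelium markers as a covariate, added after seeing the data, turned 7: Atp5a1 (-0.016), Atp5c1 (-0.025), Atp5g1 (0.14), Atp5g2 (-0.0098), Atp5h (-0.024), Atp5mpl (-0.074) and Cox6a1 (-0.026, against 0.20). With arrays left out, 1 at a time or eNOS-KO 11 with WT 5, differences ran from -0.14 to 0.070 for Cox6b1, -0.22 to 0.098 for Cox5a, -0.0064 to 0.10 for Cox8a, -0.38 to 0.037 for Cox4i2, -0.37 to 0.19 for Atp5g1, -0.059 to 0.16 for Atp5g2, -0.010 to 0.37 for Atp5g3, -0.074 to 0.16 for Atp5c1, -0.022 to 0.29 for Atp5l and -0.20 to 0.22 for Atp5mpl. With 1 array left out, Cox4i2 minus Cox4i1 was -0.074 to 0.12 and Cox6a2 minus Cox6a1 -0.18 to 0.77. Where no reason is given, the cause was not tested. No paired analysis was possible because the sample numbers of the groups do not match.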

Other observations

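The carriers that pass ATP, ADP and phosphate across the mitochondrial membranes were not part of the comparisons above. Of 8 tested, 7 had a positive difference (56.6% of all genes; median 0.20) and none passed the adjusted threshold in limma. Slc25a5, the adenine nucleotide translocator of many tissues, measured 11.75, 11.75 and 11.58 in eNOS-KO and 11.13, 11.40 and 11.39 in WT aorta, a difference of 0.39 without overlap (standard error 0.13, limma adjusted p = 0.354). The phosphate carrier Slc25a3 differed by 0.28, also without overlap. Of the 8 genes, 2 had groups without overlap on the higher side (background 13.1%). Slc25a4, the heart and muscle form of the translocator, and Ckmt2, the mitochondrial creatine kinase of striated muscle, differed by 0.33 and 0.73 with overlapping groups. Ckmt2 measured 11.43, 9.80 and 9.89 in eNOS-KO and 9.22, 9.02 and 10.69 in WT aorta, high on eNOS-KO 11 and WT 5 like Cox6a2.

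Among 20 regulators of mitochondrial biogenesis, 12 had a positive difference (56.6% of all genes), with a median of 0.031 against 0.036 over all genes. On the higher side 3 passed the unadjusted threshold (background 7.86%), none after adjustment in limma. Ppard, a nuclear receptor of fatty acid use, differed by 0.47, and Tfb1m, a methyltransferase of mitochondrial ribosomal RNA, by 0.51. Ppargc1a, the coactivator PGC-1alpha, which was also counted among the brown adipocyte markers, measured 10.01, 9.55 and 9.66 in eNOS-KO and 9.05, 9.17 and 9.54 in WT aorta, a difference of 0.49 (standard error 0.18, limma adjusted p = 0.387). Its groups did not overlap, though eNOS-KO 15 and WT 5 were nearly equal. Sirt3, a mitochondrial deacetylase, differed by -0.34 with overlapping groups.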
